A study of Mus musculus with 24 samples.

Results

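Matrix metalloproteinases (MMPs) and their tissue inhibitors (TIMPs) were described here through 10 genes, taken by name from 3 tables that compare Alk5-mutant with control cells of the mouse embryonic brain: Mmp2, Mmp9, Mmp11, Mmp14, Mmp15, Mmp16, Timp1, Timp2, Timp3 and Timp4. Of the 10, 9 were analysed in each pericyte table, among 21860 genes at E11.5 and 23792 at E13.5, and 10 in the endothelial table, among 20523 genes. Timp4 was analysed in endothelial cells only. Messenger RNA came from flow-sorted brain cells of mice with a Pdgfrb-Cre transgene and a ZsGreen reporter (Zs/+). Controls had the genotype Pdgfrb-Cre, Alk5(flox/+), so they too carried Cre and 1 floxed Alk5 copy, and mutants were Pdgfrb-Cre, Alk5(flox/flox) and are marked GMH-IVH in the labels. The pericyte groups held 4 controls and 4 mutants at each of E11.5 and E13.5, and the endothelial groups 5 controls and 3 mutants at E13.5. Pdgfrb is also expressed by other mural and mesenchymal cells, so Cre is not restricted to pericytes, and the endothelial cells came from embryos of the same genotypes. Alk5 is the older name of Tgfbr1, the type I receptor for TGF-beta.

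MMPs are zinc-dependent proteases made as inactive precursors that cut collagens, laminins, fibronectin and other matrix proteins, and TIMPs bind their catalytic site. MMP2 and MMP9, the gelatinases, cut type IV collagen of the vascular basement membrane, MMP11 is activated by furin inside the cell, and MMP14, MMP15 and MMP16 are anchored in the plasma membrane. MMP14 activates the precursor of MMP2 with TIMP2 as the adaptor between them, while TIMP3 is held in the matrix and inhibits the widest range of metalloproteinases. In growing brain vessels these proteases are known for opening the basement membrane ahead of sprouts.

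The values used were the authors' group means of normalized read counts, the ratio of mutant to control and their p, and values of single libraries were not analysed here. Each standard error (SE) and 95% interval below was worked back from the deposited ratio and p, and the adjusted p is the authors' own, over all genes of a table. A gene was called changed at an adjusted p under 0.05. Tgfbr1, the targeted gene, was not lower in mutant pericytes over the whole gene: its means in the authors' deposited tables were 4609 in controls and 6196 in mutants at E11.5, 5700 and 5823 in E13.5 pericytes, and 3066 and 2849 in endothelial cells. None passed (adjusted p of 0.399, 1.00 and 0.859). Its reads were not split by exon here, so these values give no support to the mutant label, and the genotypes rest on the labels alone. Both pericyte sorts held pericyte and fibroblast RNA: 11 of 12 pericyte markers and 12 of 12 markers of fibroblasts and meninges had values at each stage. They held RNA of other cells too. At E11.5 and E13.5 there were values for 8 and 9 of 12 endothelial markers and for 13 and 14 of 14 myeloid markers. Of 10 cartilage and bone markers 9 had values at each stage, with summed control means of 37201 and 82447. For the pericyte markers these sums were 13775 and 23958. Among the endothelial markers, Pecam1, Cldn5 and Sox17 had no value at either stage, while Cdh5 and Erg had E13.5 control means of 876 and 1868. The endothelial sort had values for 12 of 12 endothelial markers, 14 of 14 myeloid markers and 9 of 9 erythroid markers. It also had values for 12 of 12 fibroblast and meninges, 10 of 12 pericyte and 10 of 10 cartilage and bone markers. Control means there were 1562 for Lum, 1433 for Col1a2 and 4064 for Sox9, so its levels are not of endothelial RNA alone. Having a value does not give the share of a cell type. In bulk RNA, fewer cells of a type and less RNA per cell cannot be told apart.

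Mmp9, Mmp11 and Mmp14 were lower in mutant than control pericytes at E11.5, and no member rose. At E13.5 Mmp9 alone was called lower in mutant pericytes, and in E13.5 endothelial cells 0 of the 9 members tested passed. Thus 3 of 9 members were called at E11.5, against 3.35% of all genes tested (2.7% lower), 1 of 9 in E13.5 pericytes, against 0.388% (0.164% lower), and 0 of 9 in endothelial cells, against 7.3% (2.19% lower, 5.11% higher). These counts come from the adjusted p of DESeq2 in the authors' deposited tables. At an unadjusted p under 0.05, 5 of 9 members were lower at E11.5, against 17.7% of genes in either direction, 1 in E13.5 pericytes, against 4.06%, and 0 in endothelial cells, against 20%. The median log2 ratio of the 9 members was -0.45 at E11.5, -0.020 in E13.5 pericytes and -0.13 in endothelial cells, where all genes tested had medians of -0.0044, 0.0012 and -0.013. The E11.5 calls depend on the spread: with test statistics rescaled so that their median size matches a standard normal, which takes most genes as unchanged, 0 of the 3 passed (DESeq2 p rescaled, adjusted p from 0.952 to 0.995).

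**Figure D1:**
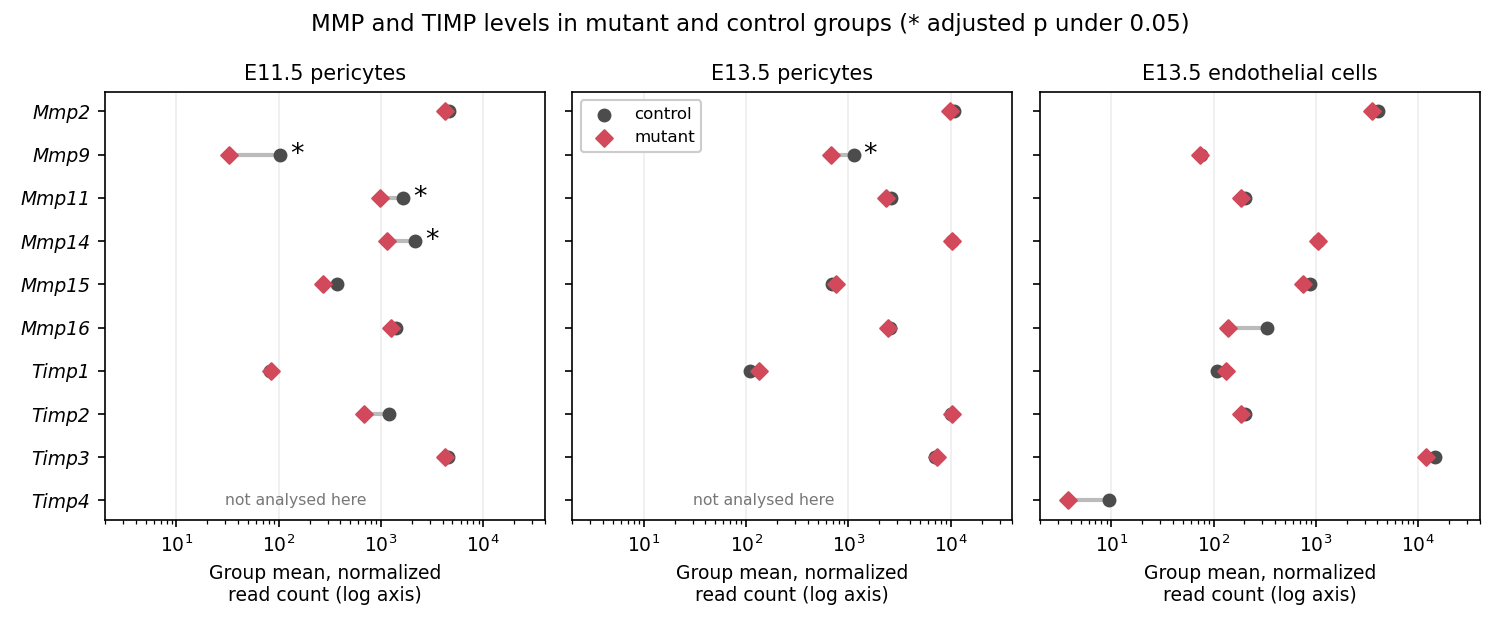
Group means of normalized read counts on a log axis for the 10 genes in controls (grey circles) and mutants (red diamonds), 1 panel per table, with the mean of 4 samples per point in pericytes and of 5 controls or 3 mutants in endothelial cells. Stars mark an adjusted p under 0.05: Mmp9, Mmp11 and Mmp14 at E11.5 and Mmp9 at E13.5, with the red diamond to the left of the grey circle in each.

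Mmp9, which encodes gelatinase B (chromosome 2, 164940780 to 164955850, plus strand, mm10), was the member called at both pericyte stages. At E11.5 its mean was 104 in controls and 32.5 in mutants in the authors' deposited table, a 3.20-fold fall (log2 ratio -1.68, SE 0.50, adjusted p = 0.0338). E13.5 pericytes had means of 1123 and 680 in the authors' deposited table, a 1.65-fold fall (log2 ratio -0.73, SE 0.13, adjusted p = 5.6e-05). The level of Mmp9 was thus low at E11.5, at the 33.3rd percentile of control means, and in the upper 50% of genes at E13.5, at the 75.0th. Endothelial cells had means of 75.5 and 74.4 (log2 ratio -0.022, 95% interval -0.68 to 0.64) in the authors' deposited table. Between stages, the E13.5 minus the E11.5 log2 ratio was 0.95, with a 95% interval of -0.07 to 1.97, and this difference did not pass (adjusted p = 0.418 by the normal test on the 2 log2 ratios). Endothelial cells differed from E13.5 pericytes by 0.70 (interval -0.0053 to 1.41, adjusted p = 0.327 by the same test). That difference passed for 0 of 9 members, against 3.94% of 16920 genes, and for 0 at an adjusted p under 0.1.

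Mmp9 is also made by macrophages and neutrophils, and their markers were read beside it. At E11.5, 13 of 13 myeloid markers were lower in mutants, with a median log2 ratio of -1.03. Of the 13, 4 were called lower and 0 higher, against 2.7% of all genes called lower. Their summed mean was 2681 in controls and 1362 in mutants in the authors' deposited table. Csf3r was the neutrophil marker of 9 with a value at E11.5, and the authors' deposited table gives it means of 12.8 and 4.40 without an adjusted p. At E13.5, 0 of 14 myeloid markers passed and their summed mean was 6204 in controls and 6483 in mutants. Itgam had no value at E11.5. The 6 neutrophil markers with values at E13.5 had summed means of 413 and 346, with 0 called. The part of myeloid cells in the fall of Mmp9 was not tested at either stage. A further limit holds for E13.5 pericytes: Xist, the RNA of the inactive X chromosome in female cells, had means of 36145 in controls and 5.73 in mutants in the authors' deposited table, so sex and genotype cannot be told apart in that comparison. Xist was not listed at E11.5 or in endothelial cells, so it could not show whether the sexes were balanced there.

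Mmp2, the gene of gelatinase A (chromosome 8, 92827291 to 92853420, plus strand), kept a high level in all groups. Its means were 4670 in controls and 4259 in mutants at E11.5, 10743 and 9822 in E13.5 pericytes, and 4021 and 3504 in endothelial cells, in the authors' deposited tables. The mutant mean was the lower in each, by 1.10-fold, 1.09-fold and 1.15-fold, and none passed (the authors' deposited tables give adjusted p of 0.734, 1.00 and 0.707). The interval in E13.5 pericytes ran from -0.27 to 0.016 on the log2 scale, so a halving of Mmp2 lies outside it.

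Mmp11, the gene of stromelysin-3 (chromosome 10, 75923222 to 75936496, minus strand), had means of 1640 in controls and 970 in mutants at E11.5 in the authors' deposited table. That is a 1.69-fold fall (log2 ratio -0.76, SE 0.21, adjusted p = 0.0152). At E13.5 the pericyte means were 2590 and 2313 in the authors' deposited table, and the log2 ratio was -0.16 (SE 0.13, adjusted p = 1.00). Endothelial means in the authors' deposited table were 203 and 186, for a log2 ratio of -0.13 (SE 0.25, adjusted p = 0.843). The stage difference for Mmp11 was 0.59 (SE 0.24, adjusted p = 0.234, normal test) and did not pass. Mmp11 shares 155 exon bases with Chchd10, a mitochondrial protein gene on the other strand, and whether the authors counted by strand is not given in the sources used here. Chchd10 did not pass at E11.5 (means of 43.7 and 22.8, adjusted p = 0.183) or in E13.5 pericytes (31.1 and 24.2, adjusted p = 1.00) and rose in endothelial cells, from 61.6 to 166 (adjusted p = 0.0103), by the authors' deposited tables.

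Mmp14, which encodes the membrane-type protease MT1-MMP (chromosome 14, 54431612 to 54445364, plus strand), fell 1.85-fold at E11.5. The authors' deposited table gives means of 2140 in controls and 1155 in mutants (log2 ratio -0.89, SE 0.25, adjusted p = 0.0171). In E13.5 pericytes they were 10376 and 10237 (log2 ratio -0.020, SE 0.058), and in endothelial cells 1046 and 1045 (log2 ratio -0.00037, SE 0.16), in the authors' deposited tables. Neither passed, and the E13.5 pericyte interval of -0.13 to 0.094 does not reach the E11.5 value. The log2 ratio of Mmp14 differed between the stages by 0.87 (SE 0.25, interval 0.38 to 1.36, adjusted p = 0.0432, normal test). Of 18267 genes, 1.43% passed that test, and Mmp14 was the member of 9 that did. Sex and genotype cannot be told apart in the E13.5 pericyte comparison, and so not in this stage difference. With the spread rescaled, this difference had an adjusted p of 1.00 (normal test).

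Promoters are shown for Mmp11 and Mmp14, the 2 members called at E11.5 for which a promoter sequence was at hand, as the 250 bases before the RefSeq start (GRCm38.p6, 5′ to 3′ on the gene's strand). The Mmp11 window is chr10:75932503-75932752, minus strand, and the Mmp14 window chr14:54431348-54431597, plus strand. The Mmp11 window lies inside the GENCODE span of the gene, some transcripts of which start further upstream, and neither window overlaps a GENCODE exon. Capitals mark CAGAC, the core of SMAD binding, and GGGCGG, the GC box bound by SP1-type factors, on either strand.
Mmp11: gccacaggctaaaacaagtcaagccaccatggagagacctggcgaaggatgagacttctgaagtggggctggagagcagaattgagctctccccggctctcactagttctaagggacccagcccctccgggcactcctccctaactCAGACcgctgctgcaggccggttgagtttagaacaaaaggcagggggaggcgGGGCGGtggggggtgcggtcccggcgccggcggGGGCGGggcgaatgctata
Mmp14: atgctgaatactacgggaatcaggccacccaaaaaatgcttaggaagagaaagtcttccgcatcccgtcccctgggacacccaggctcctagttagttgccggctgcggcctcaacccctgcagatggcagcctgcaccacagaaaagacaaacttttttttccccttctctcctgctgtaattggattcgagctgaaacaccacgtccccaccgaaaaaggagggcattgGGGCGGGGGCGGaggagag
Mmp11 had 1 CAGAC and 2 GGGCGG, and Mmp14 had no CAGAC and 2 GGGCGG. Promoters matched 7 of the 10 members. CAGAC was in 2 of the 7 and in 42.2% of 32851 promoters of this length, GGGCGG in 6 of the 7 and in 32.7%, and TGANTCA, the AP-1 site, in 0 of the 7 and in 6.75%. No searched motif contains another, and a match of letters is a description, not a bound site.

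Mmp15 and Mmp16, the genes of MT2-MMP and MT3-MMP, passed in no comparison. Mmp15 (chromosome 8, 95352268 to 95375080) had E11.5 means of 375 and 274 in the authors' deposited table, for a log2 ratio of -0.45 (SE 0.22, adjusted p = 0.264). At E13.5 its means were 684 in controls and 750 in mutants in pericytes and 885 and 751 in endothelial cells, in the authors' deposited tables. Mmp16 (chromosome 4, 17852893 to 18119145) had means of 1386 and 1258 at E11.5 and of 2528 and 2428 in E13.5 pericytes in the authors' deposited tables. The widest interval among the members with an adjusted p was that of Mmp16 in endothelial cells, where means of 336 and 138 in the authors' deposited table gave a log2 ratio of -1.28 with an interval of -3.00 to 0.43 (adjusted p = 0.437).

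**Figure D2:**
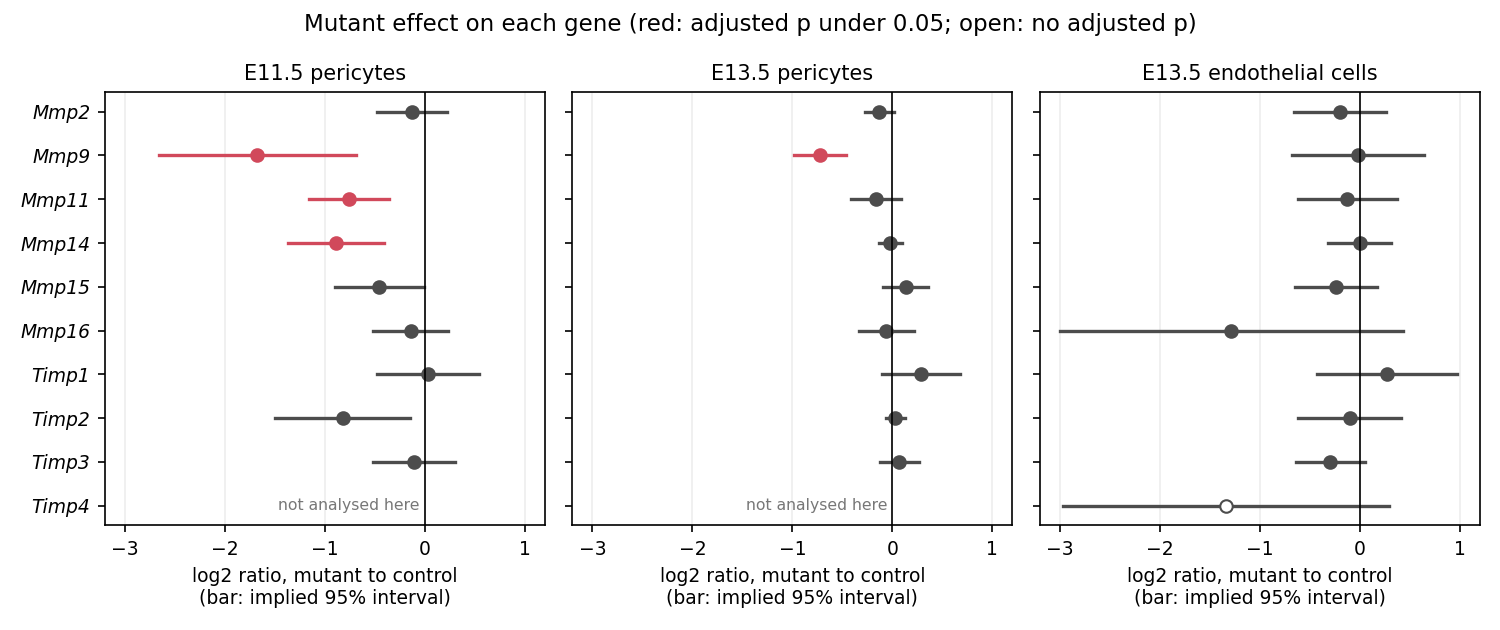
The log2 ratio of mutant to control for each gene (points) with its implied 95% interval (bars), 1 panel per table; red marks an adjusted p under 0.05 and the open point has no adjusted p. At E11.5 the Mmp9, Mmp11 and Mmp14 intervals lie wholly below 0, as do those of Mmp15 and Timp2, which are not called; at E13.5 in pericytes the intervals are narrower and Mmp9 alone is clear of 0.

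Among the TIMPs, 0 of 3 tested passed in each table. Timp2 (chromosome 11, 118301069 to 118355740, minus strand) had E11.5 means of 1201 in controls and 680 in mutants in the authors' deposited table, a log2 ratio of -0.82 close to that of Mmp14 but with a wider SE of 0.34 (adjusted p = 0.173). In E13.5 pericytes its means were 10123 and 10346 (log2 ratio 0.032, SE 0.050), the narrowest SE of any member, in the authors' deposited table. The stage difference of Timp2 was 0.85 (interval 0.17 to 1.53, adjusted p = 0.234, normal test) and did not pass. Endothelial cells had Timp2 means of 201 and 187 in the authors' deposited table.

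Timp3 (chromosome 10, 86300372 to 86349506, plus strand) had means of 4514 in controls and 4199 in mutants at E11.5, 7011 and 7358 in E13.5 pericytes, and 14753 and 12010 in endothelial cells, in the authors' deposited tables. By the authors' deposited tables its log2 ratios were -0.10, 0.070 and -0.30, and the adjusted p was 0.836, 1.00 and 0.348. Mutant endothelial cells thus had a mean 18.6% below controls, within an interval of -0.64 to 0.048 on the log2 scale. The 12 endothelial markers in the same sort had a median log2 ratio of -0.24. The part of cell content in the Timp3 value was not tested. Timp1 (chromosome X, 20870166 to 20874735), an inhibitor that also binds the MMP9 precursor, had means of 82.1 and 83.9, 108 and 132, and 109 and 131 in the same order in the authors' deposited tables, and passed in none. Timp1 is X-linked, so its E13.5 pericyte value is among those that the Xist difference touches. For Timp4 (chromosome 6, 115241892 to 115252205) the authors' deposited table gives endothelial means of 9.52 and 3.76, near the lowest of all genes, without an adjusted p. Timp1, Timp3 and Timp4 overlap the synapsin genes Syn1, Syn3 and Syn2 on the other strand, and Timp3 shares 1733 exon bases with Syn3, whose means were 79.6 and 72.0 in E13.5 pericytes in the authors' deposited table.

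Control levels of Timp2, Mmp9 and Mmp14 were several-fold apart between the stages and the cell types. The tables were normalized separately, so levels were set as parts per 1000000 (ppm) of the summed control means of each table, with no test. Timp2 had 78.5 ppm at E11.5, 398 in E13.5 pericytes and 9.52 in endothelial cells, 5.08-fold higher at the later pericyte stage and 41.8-fold higher in pericytes than in endothelial cells. Mmp14 followed the same order, with 140 (E11.5), 408 (E13.5 pericytes) and 49.6 (endothelial) ppm. Mmp9 had 6.80, 44.2 and 3.58 ppm. Mmp2 was nearer to even, with 305, 423 and 191 ppm. Mmp11 and Mmp16 changed by less between stages, with 107 and 102, and 90.6 and 99.5 ppm at E11.5 and E13.5, and stood at 9.63 and 15.9 in endothelial cells. Timp3, at 700 ppm, and Mmp15, at 42.0, were higher in endothelial cells than in either pericyte group, where Timp3 had 295 and 276 and Mmp15 24.5 and 26.9. Timp1 was low in the 3 groups, at 5.37, 4.26 and 5.17 ppm. With 1 mean per group, no spread of these levels was available, so the order of neighbouring values was not tested. The pericyte sorts also differed in other markers: controls had Col1a1 at 1881 ppm at E11.5 and 4679 at E13.5, and Acan at 8.10 and 445. Lum went the other way, with 853 and 464 ppm, as did Msx1, with 695 and 98.8. The part of cell content in the levels of the members was not tested.

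Per exon length, Mmp2 was the most abundant member in pericytes and Timp3 in endothelial cells. Levels between genes were compared as group means per kb of merged GENCODE exons. Of the summed level per kb of the 10 genes in control E11.5 pericytes, Mmp2 made up 39.0%, Mmp11 16.6%, Timp3 15.6%, Mmp14 10.1% and Timp2 8.69%. E13.5 control pericytes had 31.3% Mmp2, 25.5% Timp2 and 17.1% Mmp14, and endothelial controls 49.6% Timp3 and 32.7% Mmp2. The TIMPs together made up 26.9% in controls and 28.1% in mutants at E11.5, 35.2% and 37.9% in E13.5 pericytes, and 54.4% and 53.4% in endothelial cells. These shares moved by less than 3 percentage points between genotypes and have no error, since each group gives 1 value. Within the E11.5 mutants Mmp14 made up 6.93% and Mmp11 12.5%, and Mmp2 45.2%.

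**Figure D3:**
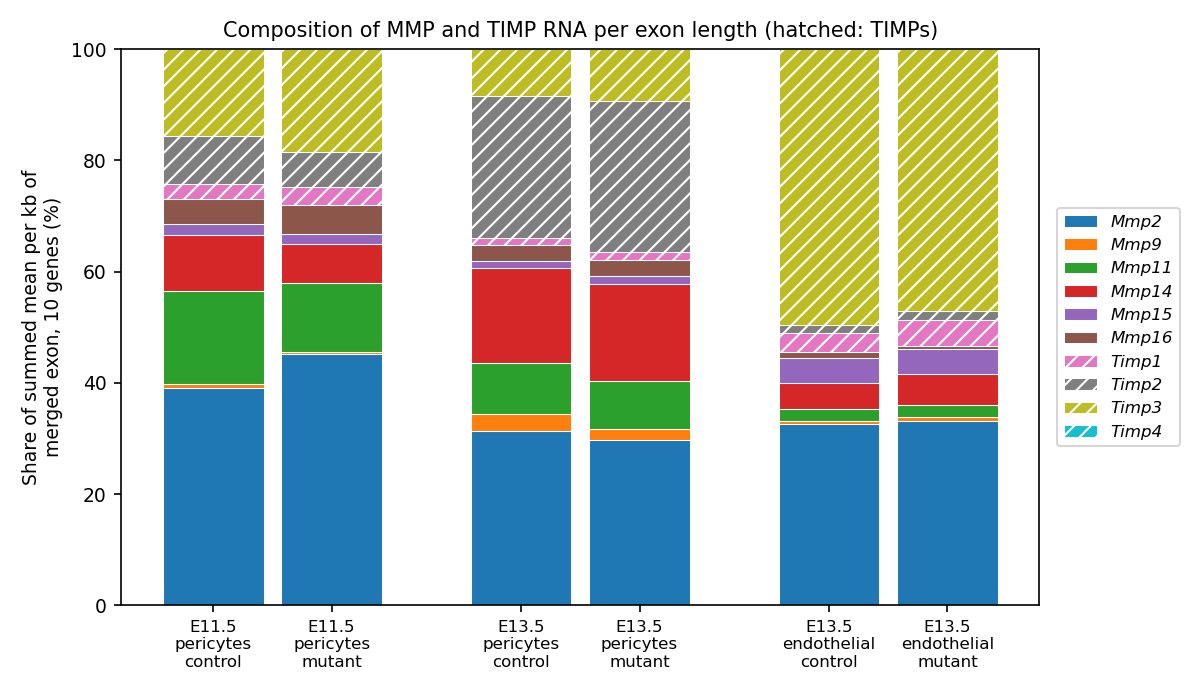
Share of each gene in the summed mean per kb of merged exon of the 10 genes (%), for controls and mutants of each table, with TIMPs hatched. The TIMP share is 26.9% in E11.5 control pericytes, 35.2% in E13.5 control pericytes and 54.4% in endothelial controls, and Timp2 widens between the pericyte stages.

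The other genes of the system were read from 3 lists. Of 17 further MMP genes, 5, 7 and 6 had an adjusted p in the E11.5 pericyte, E13.5 pericyte and endothelial tables. Of these, 1 passed, in endothelial cells, where 2.19% of all genes tested were called lower. This was Mmp25, which encodes a membrane-anchored MMP of leukocytes. It fell 1.61-fold, from 893 to 556 (adjusted p = 0.0165, DESeq2, in the authors' deposited table). Of 20 genes that activate or restrain MMPs, 2 of 17 fell at E11.5, against 2.7% of all genes tested. In E13.5 pericytes 0 of 18 passed, against 0.388%. In endothelial cells 1 of 19 rose, a share close to the 5.11% of all genes called higher there. Those that fell were Thbs1, a thrombospondin that binds MMPs and activates latent TGF-beta, from 6869 to 3770, and Pcsk6, a proprotein convertase, from 39.1 to 13.7. Their adjusted p was 0.0410 and 0.0495, per the authors' deposited table. The one that rose was Plaur, the urokinase receptor of the plasmin pathway, at 1.37-fold (811 to 1111, adjusted p = 0.0420) in the authors' deposited table. Reck, a membrane-anchored MMP inhibitor needed for brain vessels, did not pass at E11.5 in the authors' deposited table (means 1259 and 930, adjusted p = 0.285), nor did Furin, an activating convertase (485 and 321, adjusted p = 0.128).

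Among 18 matrix substrates, 0 passed in E13.5 pericytes, against 0.388% of all genes tested. In endothelial cells 1 fell, against 2.19% of genes called lower, and 4 fell at E11.5, against 2.7%. At E11.5 these were Eln, the elastin gene, 3.22-fold (233 to 72.2, adjusted p = 7.8e-05), the collagen gene Col1a2 1.62-fold, and the proteoglycan genes Dcn 2.13-fold and Bgn 1.64-fold, in the authors' deposited table. Bgn also fell in endothelial cells, 1.64-fold, from 4071 to 2475 (adjusted p = 0.0083, DESeq2, in the authors' deposited table). At E11.5 the substrates had a median of -0.41 on the log2 scale, the activation genes -0.31 and the further MMPs -0.39, beside -0.0044 over all genes tested. In E13.5 pericytes the medians were 0.12, -0.019 and -0.024 beside 0.0012, and in endothelial cells -0.29, 0.041 and -0.32 beside -0.013. The stage difference passed for Eln (1.64, SE 0.43, adjusted p = 0.0194, normal test), and not for Thbs1, Pcsk6, Bgn, Col1a2 or Dcn (adjusted p from 0.0758 to 0.252). With the spread rescaled, none of these related genes stayed called: the adjusted p was 0.267 to 0.995 for the 6 called at E11.5, 0.411 to 0.649 for Mmp25, Plaur and Bgn in endothelial cells, and 0.730 for the stage difference of Eln (normal test). Plaur also lost its call when scaled to summed means (adjusted p = 0.141), and Pcsk6 with no filter on low genes (adjusted p = 0.056).

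**Figure D4:**
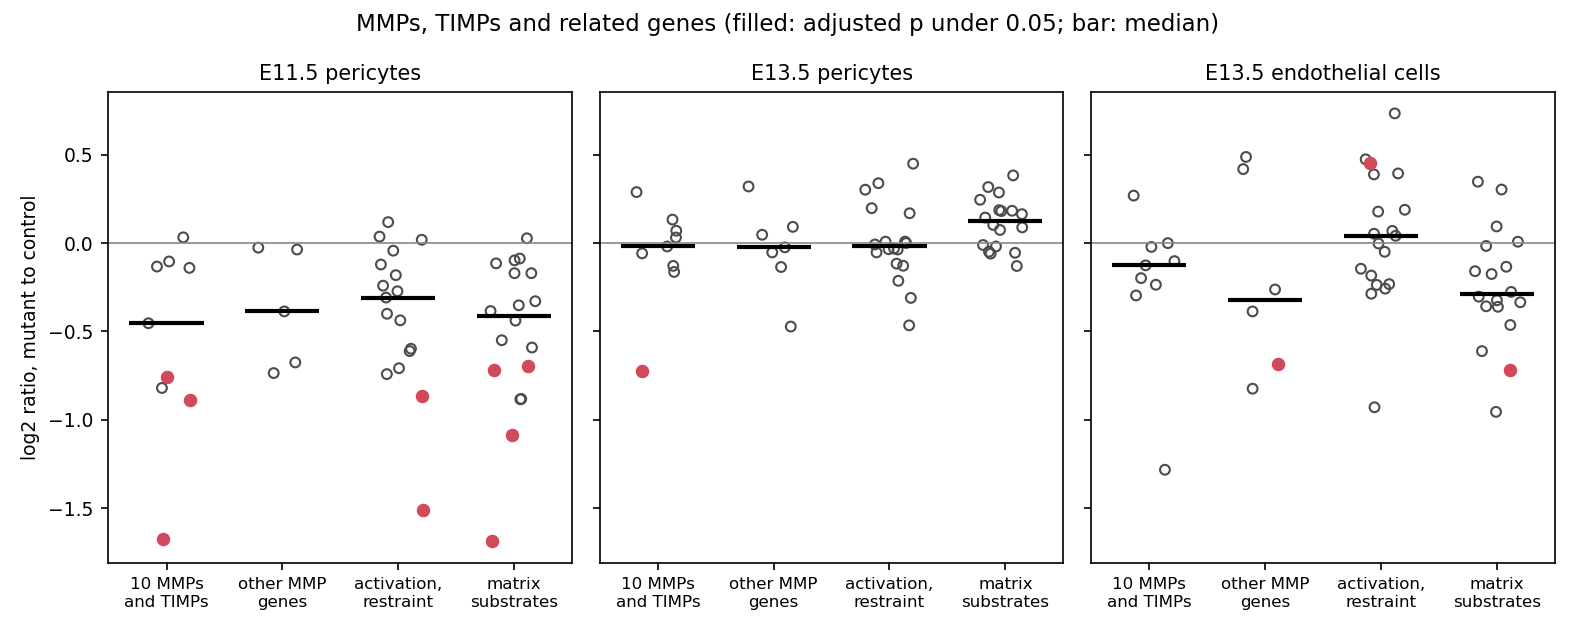
The log2 ratio of mutant to control for the 9 members tested and the 3 related lists, 1 panel per table; each point is a gene with an adjusted p, filled red where it is under 0.05, and bars mark the median of a list. At E11.5 all 4 medians lie below 0, from -0.45 to -0.31, and in E13.5 pericytes they lie between -0.024 and 0.12.

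Markers of other cells moved with the E11.5 members. Of 12 markers of fibroblasts and meninges, which also make Mmp2, Mmp11 and Mmp14, 4 fell and 1 rose at E11.5, with summed means of 78997 in controls and 54556 in mutants in the authors' deposited table. At E13.5 0 of the 12 passed in pericytes and the sums were 272292 and 279426. All 8 endothelial markers with values at E11.5 were lower in mutants, with 1 called (Erg). Their median log2 ratio was -1.03 and their sums were 1024 and 476. Of 11 pericyte markers 9 were lower and 2 higher, with 5 called lower and sums of 13775 and 10983. Erythroid markers at E11.5 were lower for 4 of 4, with 0 called. Beside the E13.5 fall of Mmp9 in pericytes, the pericyte marker Rgs5 fell (adjusted p = 0.00022), Cox4i2 rose (adjusted p = 0.026) and Erg, from the endothelial list, fell (adjusted p = 0.00069), by the authors' deposited table. There the sums were 23958 and 24188 for 11 pericyte markers and 3682 and 3440 for 9 endothelial ones. Of these 9, 8 were higher in mutants, with 0 called. Erg, whose control level was higher in E13.5 pericytes than in the endothelial sort, was the 1 lower (means of 1868 and 1203). The median log2 ratio of the 9 was 0.35. Erythroid markers at E13.5 were higher in mutants for 6 of 6, with sums of 471 and 2073 and 0 called. The fibroblast list shares Col1a2 and Dcn with the substrate list. Among cartilage and bone progenitor markers 8 of 9 were lower at E11.5, and 2 were called. These were Runx2, with means of 466 and 33.6 (adjusted p = 0.00048, DESeq2), and Dlx5, with 131 and 20.8 (adjusted p = 0.0016, DESeq2). Msx1 was the 1 higher, with means of 10635 and 13967, and was not called. The sums of these 9 markers were 37201 and 34906. Among neural markers 0 of 9 passed at E11.5, with sums of 5337 and 5000. In the endothelial sort 9 of 9 erythroid markers rose, with sums of 63921 and 1716200, and 3 of 14 myeloid markers rose, with sums of 14464 and 24645. Of the 12 endothelial markers there, 10 were lower in mutants and 2 higher, with sums of 147124 and 125588. Their median log2 ratio was -0.24, and 1 was called lower: Kdr, with means of 27972 and 20590 (adjusted p = 0.0209, DESeq2). Beside the lower endothelial mean of Mmp16, cartilage and bone markers had sums of 10600 and 3880 and pericyte markers 1828 and 1205, with 0 of 10 called in each. Among those that were lower, Acan had means of 994 and 67.2, Col2a1 4151 and 481, Sox9 4064 and 1200, and Cspg4 238 and 37.6, by the authors' deposited table. Other markers went the opposite way: 5 of 10 for cartilage and bone and 3 of 10 for pericytes were higher in mutants. Ibsp, a cartilage and bone marker, rose most, from 37.5 to 718. The part of these cells in the values of the members was not tested.

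The genes whose 3 log2 ratios lay nearest to those of a called member were sought among 6516 genes with a control mean above the median of each table, over the 3 comparisons. For Mmp14 they were the nuclear RNA Malat1, the kinase gene Fyn and the splicing factor gene Hnrnpll, at distances of 0.060, 0.085 and 0.085 on the log2 scale. Mmp11 had Mtss2, Cop1 and the matrix protein gene Fbln2, at 0.046, 0.053 and 0.063. Mmp9 had Fosb, Runx1 and Fos, all transcription factor genes, at wider distances of 0.35, 0.37 and 0.41. Of these 9 neighbours, Runx1 alone passed at both pericyte stages. The authors' deposited tables give it -1.84 (adjusted p = 0.0062) and -0.48 (adjusted p = 0.0054) on the log2 scale.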

How the data were processed

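RNA was sequenced with the KAPA mRNA HyperPrep kit on a NovaSeq6000, per the labels' protocols. The submitters' processing notes name Bowtie2, DESeq2, Partek and the build mm10 without versions; for annotation, counting, strand and filters, nothing is given in the sources used here. All 3 deposited tables hold, per the file headers, the authors' p-value, step-up FDR, ratio of mutant to control, signed fold change (a score that is never between -1 and 1) and 1 least-squares mean per group. The means were read as a deposited signal, the mean normalized count, with an unknown scale factor, so library depth is unknown and no interval for counting error was possible.

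The deposited ratio is the quotient of the means and the deposited FDR is a Benjamini-Hochberg adjustment across 19301, 20084 and 18132 genes, both checked on the files. It is printed as the adjusted p. The SE is the log2 ratio divided by the normal deviate of the two-sided p, as a Wald test has it. To compare mutant effects between tables, 2 log2 ratios were subtracted, divided by their combined SE (normal test) and adjusted over 18267 (stages) and 16920 (cell types) genes. No library is in 2 tables, but the labels do not say whether both cell types came from the same embryos, or samples from separate litters; p-values cover the variation among these samples alone.

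All 10 members were named, with up to 4 called genes of each related list per table and 3 nearest genes for each called member; Reck, Furin, Erg, Chchd10, Syn3, Tgfbr1, Xist and the markers were named outside that rule. Members and lists were chosen with earlier results of these data known. Positions and merged exon lengths come from GENCODE M21 (mm10), promoters from RefSeq (GRCm38.p6). The alternatives were no filter, a minimum mean level of 50, scaling to summed means, a rescaled spread and an FDR of 0.1. Steps were tested on simulated data. The tools were matplotlib 3.10.9, scipy 1.17.1, numpy 2.4.6, pandas 2.3.3 and Python 3.11.15.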

Additional observations from a re-analysis of the deposited data

Results flagged for a closer look

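The mutant to control log2 ratio of Mmp14 differed between pericyte stages by 0.87 (adjusted p = 0.0432, normal test on the difference over 18267 genes), from -0.89 at E11.5 to -0.020 at E13.5. Eln, the elastin gene, differed between the same stages by 1.64, from -1.69 to -0.049 (adjusted p = 0.0194, same test). Bgn differed between E13.5 endothelial cells and pericytes by -0.66, with log2 ratios of -0.72 and -0.060 (adjusted p = 0.0414, same test over 16920 genes), where 3.94% of genes passed. With the spread rescaled, these differences had adjusted p of 1.00 (Mmp14), 0.730 (Eln) and 0.569 (Bgn), so none passed. Each of these differences uses the E13.5 pericyte comparison, in which sex and genotype cannot be told apart. No test for samples far from their group was possible, since values per library were not analysed here.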

How the results depend on the processing

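Of 225 member values under the alternatives, 217 kept their direction and their side of the threshold, 4 lost the call and 4 changed sign, and 0 gained a call; of 197 values of the related genes named, 172 did so, 14 lost the call, 4 gained it (the stage differences of Bgn and Col1a2, with summed means or an FDR of 0.1) and 7 changed sign. With the spread rescaled, the count of members called fell from 3 to 0 at E11.5 and from 1 to 0 for the stage difference, and the counts over all genes went from 646 to 5 at E11.5, 78 to 142 in E13.5 pericytes, 1323 to 49 in endothelial cells, 262 to 2 for the stage difference and 666 to 15 for the cell type difference. At an FDR of 0.1 they were 1139 at E11.5 and 447 for the stage difference. Scaled to the summed means, 2199 genes passed in endothelial cells, 445 for the stage difference and 1224 for the cell type difference. That scaling moved the endothelial median log2 ratio by -0.13 and the share of calls that were higher from 70.0% to 28.8%, against 64.3% when erythroid genes were left out of the sums, an alternative chosen after seeing the data; in E13.5 pericytes the share went from 57.7% to 69.8%. The member log2 values that changed sign were, with summed means, Timp1 at E11.5 (-0.012) and the cell type differences of Mmp11 (-0.11) and Mmp14 (-0.12), and without erythroid genes that of Mmp14 (-0.017). Among related genes, Col1a2 changed sign with summed means in E13.5 pericytes (0.0080), endothelial cells (-0.12) and the cell type difference (-0.13), and without erythroid genes in the last pair (-0.010 and -0.018); Pcsk6 did so with summed means in endothelial cells (-0.072) and the cell type difference (-0.060). Mmp9 in E13.5 pericytes passed in all 5 alternatives (adjusted p from 2.9e-07 to 0.0001). Among these, the rescaled spread multiplied each SE by 0.864 in E13.5 pericytes, and the FDR of 0.1 was a looser threshold. Neither could remove a call in that table. At E11.5 the same rescaling widened each SE, by a factor of 1.51. Leaving out replicates was not run, since the tables hold group means. No paired analysis was possible because the columns carry group means with no replicate number. The unknown depth limits what can be said of Timp4 and Pcsk6, both at low means.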
